A study of Homo sapiens with 72 samples.

Results

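Vaginal epithelial cells of the VK2/E6E7 line were exposed to live G. vaginalis (GV) for 24 h with no polyamine given beforehand, and their RNA was compared with that of VK2 cells given neither. These are the 3 NT+GV and the 3 NT+noGV libraries of VK2 cells, 6 of the 72 libraries of the series, and the labels of cell type, polyamine and bacterium pick them out. VK2/E6E7 is an immortalized human vaginal line that carries the E6 and E7 genes of a papillomavirus, and both groups carry them. NT stands for non-treated, meaning medium with no putrescine, spermidine or spermine during the 4 h before the bacteria, and noGV for medium with no bacteria. Both groups were grown as single-line cultures in keratinocyte medium without antibiotics, so they hold no leukocytes or stroma, and GV was added at 10000000 colony-forming units per well. The series as a whole set this exposure beside polyamine pretreatments in VK2, ectocervical (Ecto) and endocervical (Endo) cells, with 3 libraries in each of 8 groups per line. The comparison asked which genes of a vaginal epithelial cell respond to G. vaginalis alone.

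G. vaginalis is an anaerobic bacterium that dominates many vaginal communities poor in lactobacilli, and it makes a pore-forming toxin. The vaginal epithelium is a stratified squamous layer whose cells sense bacterial lipoproteins through TLR2 and its adaptor MYD88, release NF-kB from its inhibitors and transcribe cytokines, chemokines that draw neutrophils, complement and antimicrobial proteins. Interferon-stimulated genes, by contrast, are switched on through STAT2 and IRF9, among other factors, and matrix metalloproteinases and kallikreins cut the proteins that hold the layer together.

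GV alone moved a small share of the transcriptome far and a larger share slightly. Of 18474 genes tested, 413 (2.24%) were called, that is they changed at least 2-fold with an adjusted p below 0.05, and of these 322 (1.74%) were raised and 91 (0.493%) lowered. By adjusted p alone 2573 genes (13.9%) rose and 2309 (12.5%) fell, and the median log2 fold change of all genes was 0.0014. All 3 NT+GV libraries lay above all 3 NT+noGV libraries for 19.4% of the genes, and below them for 18.4%. Protein-coding genes made up 239 of the raised and 58 of the lowered genes, and long non-coding RNAs 62 and 24. With a mean level of at least 1 on the log2 CPM scale over the 6 libraries, 97 raised and 18 lowered genes remained. Here and below, "rose" and "fell" mean an adjusted p under 0.05 in edgeR's quasi-likelihood test with Benjamini-Hochberg adjustment over all genes tested. Fold changes are log2 values with a standard error (SE), taken as their size over the square root of the test's F statistic. Levels are counts of a gene per 1000000 counts of the library (CPM), in NT+noGV libraries 1 to 3 and then NT+GV libraries 1 to 3. For single genes the library total was that of the tested genes, scaled by edgeR's TMM factor. Summed levels of a list used unscaled totals.

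The fit pooled the spread over all 24 VK2 libraries. Library totals of the 6 ran from 22579560 to 35908443 counts, and the common biological coefficient of variation was 0.0434. The labels do not say whether the 3 libraries of a group came from separate cultures, so p-values measure only the spread between these libraries, which may be technical. The sample titles name the cells only as vaginal, and the library names begin with VK2 or VK. All 14 markers listed for a stratified epithelium were tested and together held 41440 to 42410 CPM without and 41670 to 44920 CPM with GV. Among them were KRT5 at 17050 ± 140.1 CPM (SD, n = 3) and TP63 at 302 ± 5.95 CPM in NT+noGV libraries. Keratins of simple epithelium summed to 1947 to 2047 CPM without and 1963 to 2170 CPM with GV. Of 12 leukocyte markers 6 had no count in the 6 libraries and 10 stayed under 1 CPM in all of them. The summed level of that list was 6.96 to 9.04 CPM without and 10.4 to 12.5 CPM with GV, nearly all of it CSF1R, a receptor gene (log2 fold change 0.46), while ITGAX rose at low level (1.07, not passing without NT+GV library 1, adjusted p = 0.0521, edgeR), and PTPRC, CD3E and MS4A1 were too low to be tested. Endothelial markers summed to 1.12 to 1.57 CPM without and 2.17 to 2.51 CPM with GV, of which CLDN5 (1.43) rose. Fibroblast markers summed to 25.4 to 26.7 CPM and 34.1 to 38.2 CPM, carried by COL1A1 (0.51) with DCN (0.97) at low level. Of 9 columnar markers 3 were tested and summed to 23.5 to 27.7 CPM and 16.2 to 18.5 CPM, with PAX8 rising (0.78) and FOXA2 falling (-1.01). The part of these markers in the results was not tested. In bulk RNA, fewer cells of a kind and less RNA per cell cannot be told apart.

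Every tested gene listed as a neutrophil chemokine rose. CXCL1, a chemokine for neutrophils encoded by chr4:73869393-73871308 (GRCh38), was at 1.37, 1.75 and 1.2 CPM in the NT+noGV libraries and 10.5, 11.7 and 13.8 CPM in the NT+GV libraries. CXCL2, from the same cluster, was at 4.84, 4.44 and 4.61 CPM and 19.3, 18 and 20.4 CPM. CXCL8, which encodes interleukin-8, was at 3.61, 3.42 and 3.56 CPM and 19.2, 18.8 and 19.2 CPM. The groups were apart by several times their own spread for all of these genes. The log2 fold changes were 3.09 ± 0.20 for CXCL1 (adjusted p = 3.9e-10, edgeR), 2.06 ± 0.12 for CXCL2 (adjusted p = 1.95e-11, edgeR) and 2.43 ± 0.16 for CXCL8 (adjusted p = 1.96e-09, edgeR). Of 7 members tested of this list, 7 rose and 7 were called raised, with a median of 2.29. CXCL3 (1.93 ± 0.11), CXCL5 (2.32 ± 0.32), PPBP (2.29 ± 0.34) and CXCL17 (1.05 ± 0.37) completed it, the last 3 from levels under 1 CPM, and CXCL17 did not pass without NT+noGV library 1 or 3 or NT+GV library 2 or 3 (adjusted p from 0.0685 to 0.191, edgeR). Whether CXCL17 draws neutrophils was not tested. CXCL1, CXCL2 and CXCL3 are near-identical copies in places, so reads may be split among them with error. Among 9 other chemokines tested 4 rose and none passed in the other direction. CCL20, which attracts dendritic and T cells, rose from 0.683, 0.473 and 0.613 CPM to 2.94, 2.94 and 3.78 CPM (2.44 ± 0.18, adjusted p = 1.53e-12, edgeR). CXCL10 (1.99 ± 0.24), CCL5 (1.56 ± 0.30) and CXCL16 (0.97 ± 0.06) were the other risers.

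**Figure D1:**
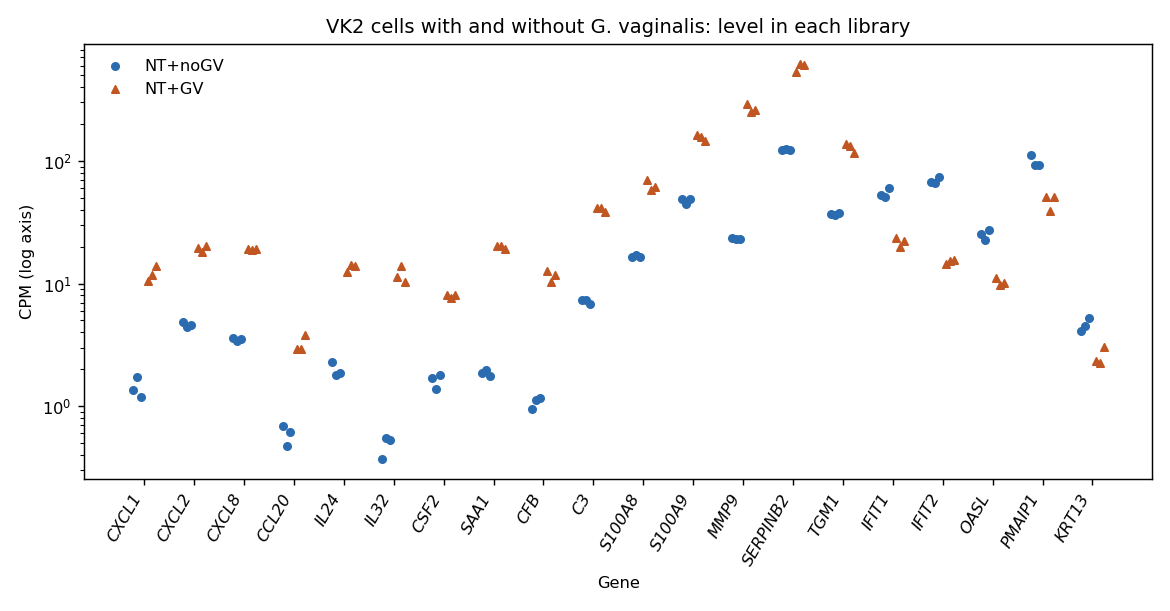
Levels in CPM (log axis) of 20 genes in the 3 NT+noGV libraries (circles) and the 3 NT+GV libraries (triangles) of VK2 cells, each point being 1 library. For every gene drawn the groups do not overlap, from IL32 with 0.37, 0.545 and 0.525 CPM against 11.4, 14 and 10.2 CPM to KRT13 with 4.1, 4.54 and 5.22 CPM against 2.35, 2.24 and 3.06 CPM.

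Cytokine genes rose together, with IL32 the farthest. IL32, at chr16:3065297-3082192, encodes a proinflammatory cytokine made by epithelial and lymphoid cells. Its level was 0.37, 0.545 and 0.525 CPM without and 11.4, 14 and 10.2 CPM with GV. This was the largest rise among genes of at least 1 log2 CPM (4.62 ± 0.17, adjusted p = 3.7e-20, edgeR). Of 27 cytokine and growth factor genes tested, 20 rose, 3 fell and 15 were called raised, with a median of 1.11. Members of the IL-20 family, neighbours on chromosome 1, rose: IL24 went from 2.28, 1.78 and 1.87 CPM to 12.4, 14.1 and 13.8 CPM (2.76 ± 0.10), and IL19 (2.88 ± 0.92) and IL20 (2.83 ± 0.76) rose at under 1 CPM. The myeloid growth factor CSF2 rose from 1.71, 1.38 and 1.78 CPM to 8.08, 7.56 and 8.12 CPM (2.28 ± 0.12), with CSF3 (2.19 ± 0.18) and CSF1 (1.03 ± 0.13). IL1B, the cytokine that inflammasomes cleave, was at 90.5, 91.3 and 93.8 CPM and 202, 203 and 192 CPM (1.11 ± 0.05, adjusted p = 9.12e-19, edgeR). IL36G (3.66 ± 0.25), IL33 (2.37 ± 0.28), IL6 (2.15 ± 0.35), IL23A (1.59 ± 0.17) and TNF (1.80 ± 0.45) rose as well, TNF at under 1 CPM in all 6 libraries. The 3 members that fell were IL18 (-0.18 ± 0.04), LIF (-0.49 ± 0.14) and TSLP (-0.66 ± 0.23), the last an epithelial cytokine of allergic responses. With 1 library left out, the adjusted p of edgeR rose to 0.0557 to 0.0877 for IL19 (without NT+noGV 2 or 3 or NT+GV 2), 0.058 for TNF (without NT+GV 2), 0.0524 for LIF (without NT+noGV 3) and 0.0594 to 0.137 for TSLP (without NT+noGV 1 or 2 or NT+GV 1 or 2). PTGS2, the inducible cyclooxygenase, rose from 114, 102 and 102 CPM to 318, 308 and 349.5 CPM (1.62 ± 0.08, adjusted p = 3.46e-12, edgeR), and 5 of 11 prostaglandin synthesis genes rose and 0 fell.

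NF-kB genes rose nearly as a whole. Of 22 subunits and feedback inhibitors 21 rose, 7 were called raised and none passed in the other direction, with a median of 0.63 against 0.0014 over all genes. The inhibitor TNFAIP3 was at 66.1, 67.2 and 68.4 CPM and 234, 271 and 251 CPM (1.90 ± 0.10, adjusted p = 2.1e-10, edgeR). The ubiquitin ligase gene BIRC3 went from 23.1, 20.1 and 22 CPM to 69, 61 and 76.2 CPM (1.66 ± 0.10). Among the subunits RELB (1.12 ± 0.08) and NFKB2 (0.78 ± 0.05), of the non-canonical arm, had values of this size against RELA (0.20 ± 0.04) and REL (0.43 ± 0.07), which rose as well. TNIP1 (0.73 ± 0.04), NFKBIA (0.83 ± 0.06) and the kinase IRAK2 (1.06 ± 0.08) rose too. TNIP3 had no count without GV and 8 counts with it. Of the sensors, 6 of 18 Toll-like receptors and adaptors rose, none was called, and the median was 0.18. TLR2 was at 23.4, 24.4 and 26.2 CPM and 41.8, 35 and 39.2 CPM (0.65 ± 0.07, adjusted p = 2.33e-08, edgeR), and MYD88 at 17.4, 17.7 and 18.6 CPM and 24.6, 25.5 and 23.8 CPM (0.46 ± 0.06). The cytosolic peptidoglycan sensor NOD2 rose too (0.74 ± 0.10), and the groups did not overlap for any of these 3. TLR4 did not pass and stayed under 1 CPM (-0.64 ± 0.37).

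Stretches of promoter that hold a match to the NF-kB consensus are shown for chemokine and cytokine genes, NF-kB inhibitor genes and LCN2, all of which rose, to set the letters beside the values. The sequences are RefSeq's (GRCh38.p14), read 5′ to 3′ on the gene's strand, all of them upstream of the listed start, and capitals mark every base covered by a match on either strand. Overlapping matches were merged.
CXCL1, chr4:73869284-73869354, + strand: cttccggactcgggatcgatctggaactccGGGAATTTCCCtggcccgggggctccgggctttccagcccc
CXCL2, chr4:74099233-74099303, - strand: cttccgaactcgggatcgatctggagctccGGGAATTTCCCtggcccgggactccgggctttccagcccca
CXCL3, chr4:74038728-74038798, - strand: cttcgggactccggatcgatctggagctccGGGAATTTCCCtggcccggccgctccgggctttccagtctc
CCL20, chr2:227813733-227813802, + strand: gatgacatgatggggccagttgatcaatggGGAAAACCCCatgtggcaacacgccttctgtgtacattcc
IL32, chr16:3065274-3065344, + strand: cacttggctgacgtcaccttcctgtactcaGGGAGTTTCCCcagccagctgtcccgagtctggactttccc
CXCL10, chr4:76023635-76023704, - strand: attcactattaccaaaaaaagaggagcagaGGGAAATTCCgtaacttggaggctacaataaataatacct
TNFAIP3, chr6:137867162-137867231, + strand: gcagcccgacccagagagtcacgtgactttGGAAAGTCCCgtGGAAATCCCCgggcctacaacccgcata
NFKBIA, chr14:35404791-35404860, - strand: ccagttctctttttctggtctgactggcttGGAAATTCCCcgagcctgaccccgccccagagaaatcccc
LCN2, chr9:128149248-128149317, + strand: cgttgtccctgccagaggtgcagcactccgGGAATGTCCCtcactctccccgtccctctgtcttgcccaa
CXCL1, CXCL2 and CXCL3 share the same 11 matched bases at nearly the same distance, starting 79, 78 and 79 bases before their starts. The matches of IL32 and CXCL10 start 99 and 177 bases before theirs. Over windows from 250 bases before to 50 after each listed start, 30 of 172 called raised genes with a window held a match (17.4%), 4 of 52 called lowered genes (7.69%) and 1092 of 12225 tested genes (8.93%). Among all 35116 windows of the reference 5.91% held one. Windows were found for 172 of the 322 raised genes, and of the genes looked at singly CXCL6, NFKB2 and IL6 held a match too, while CXCL8, CSF2, IL24, IL1B, CFB, SOD2 and ICAM1 held none to these letters and SAA1, C3, MMP9 and RELB had no window listed. A match describes the sequence only and was not tested as a site.

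Complement, acute-phase and antimicrobial genes rose with the cytokines. SAA1, a serum amyloid, was at 1.85, 1.96 and 1.75 CPM and 20.2, 20.2 and 19.2 CPM (3.42 ± 0.10, adjusted p = 1.58e-22, edgeR). CFB, complement factor B of the alternative pathway, was at 0.939, 1.13 and 1.17 CPM and 12.6, 10.2 and 11.6 CPM (3.42 ± 0.15). C3, on which the complement pathways meet, was at 7.31, 7.34 and 6.83 CPM and 41.1, 41.1 and 38.2 CPM (2.48 ± 0.08), and its counts may include reads of GPR108, which overlaps it on the same strand. All 3 genes rose 5-fold or more with no overlap of the groups, and SAA1 may share reads with its near copy SAA2 (3.24 ± 0.32). C1R (1.70 ± 0.11) and C1S (1.77 ± 0.12), the proteases of the classical pathway, rose too. C1RL overlaps C1R on the same strand (1904 counts in the 6 libraries against 1018), so C1R counts may include its reads. Of 18 complement and acute-phase genes tested 10 rose, 2 fell and the median was 0.87. C5, which starts the terminal pathway, was among those that fell (-0.46 ± 0.12), and without NT+noGV library 3 only 1 fell. The inhibitor CD59 rose (0.39 ± 0.03), while CD55 did not pass (0.16 ± 0.06) except in 4 alternatives, among them the replicate block and the 6 NT libraries alone (adjusted p = 0.0305 and 0.0203, edgeR).

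The calprotectin pair rose among the antimicrobial genes. S100A8 was at 16.3, 17.2 and 16.5 CPM and 69.6, 58.1 and 61.4 CPM (1.93 ± 0.06, adjusted p = 8.55e-22, edgeR), and S100A9 at 49.2, 44.9 and 48.5 CPM and 161, 157 and 145 CPM (1.70 ± 0.06, adjusted p = 3.94e-20, edgeR). The elastase inhibitor PI3 went from 73, 72.3 and 77.5 CPM to 209, 224 and 204 CPM (1.51 ± 0.06), and SLPI, of the same family, from 78.7, 77.8 and 77.8 CPM to 148, 144 and 136 CPM (0.87 ± 0.05). In each pair the NT+GV libraries lay above all NT+noGV libraries. LCN2, which binds bacterial siderophores, rose from about 1 CPM (1.87 ± 0.16). Of 16 antimicrobial genes tested 12 rose, 0 fell and the median was 1.43. PGLYRP2, a peptidoglycan-cleaving enzyme, had no count in the 3 NT+noGV libraries and 24 counts in the 3 NT+GV libraries, at least 8.94-fold higher against a floor of 3 counts over the group. The defensins DEFB1, DEFB4A and DEFB103A were too low to be tested. Of 12 iron handling genes 6 rose, with the ferritin chains FTH1 (0.43 ± 0.06) and FTL (0.49 ± 0.04) among them, and 1 fell.

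MMP9 had the widest gap of the protease genes. MMP9, gelatinase B encoded by chr20:46008908-46016561, was at 23.7, 23 and 23.1 CPM without and 290.5, 249 and 261 CPM with GV. The lowest NT+GV library was about 10 times the highest NT+noGV library, and the log2 fold change was 3.52 ± 0.08 (adjusted p = 5.56e-18, edgeR). Of 15 matrix metalloproteinases and TIMPs tested 11 rose, none passed in the other direction and the median was 0.54. The collagenase MMP1 went from 38.7, 35.4 and 38.1 CPM to 73.2, 70 and 71.4 CPM (0.93 ± 0.05), the inhibitor TIMP1 rose by 0.52 ± 0.05 and the membrane protease MMP14 by 0.37 ± 0.04. Plasminogen activation genes moved at both ends. SERPINB2, an inhibitor of plasminogen activators, was at 124, 124 and 123 CPM and 528, 620.2 and 605 CPM (2.24 ± 0.06, adjusted p = 2.95e-17, edgeR). The activator urokinase, PLAU, went from 279.6, 294 and 299 CPM to 527, 498 and 488 CPM (0.79 ± 0.05), and its receptor PLAUR rose as well (0.63 ± 0.05). SERPINE2, another inhibitor, was the member that fell (-0.31 ± 0.04), and without NT+GV library 3 a further member passed, making 2. Of 12 clade B serpins 7 rose and 0 fell, SERPINB3 (1.23 ± 0.12) and SERPINB4 (1.91 ± 0.40) being near copies that may share reads. The laminin chain LAMB3 (0.59 ± 0.04) and the fibronectin receptor subunit ITGA5 (0.63 ± 0.04) rose, among 12 of 24 integrin, laminin and matrix genes, with 2 falling (1 without NT+GV library 3).

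**Figure D2:**
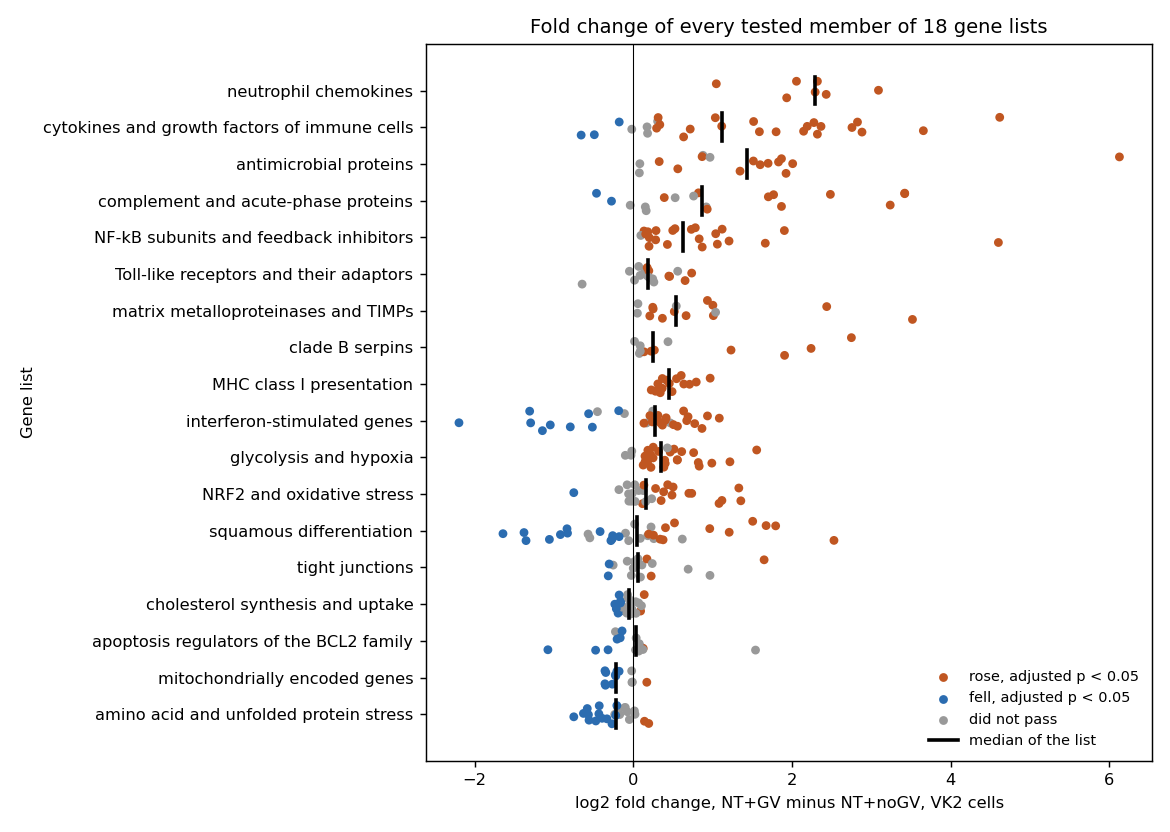
Log2 fold change (NT+GV minus NT+noGV, VK2 cells) of every tested member of 18 gene lists, 1 point per gene in orange where it rose, blue where it fell and grey where it did not pass at an adjusted p of 0.05, with the median of each list as a black line. The medians run from 2.29 for neutrophil chemokines to -0.22 for amino acid and unfolded protein stress and for mitochondrially encoded genes, and interferon-stimulated and squamous differentiation genes lie on both sides of 0. The points of PGLYRP2 and TNIP3, each the rightmost of its list, have no count without GV, so their fitted values carry no size.

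Interferon-stimulated genes split. IFIT2, at chr10:89283694-89309271, encodes an RNA-binding antiviral protein and showed the largest fall of any gene of at least 1 log2 CPM. It was at 67.4, 65.5 and 74.1 CPM without and 14.4, 15.3 and 15.5 CPM with GV (-2.20 ± 0.09, adjusted p = 4.18e-14, edgeR). IFIT1 was at 52.6, 50.9 and 59.96 CPM and 23.7, 19.9 and 22.3 CPM (-1.31 ± 0.13). Both overlap LIPA on the opposite strand, and the library kit keeps strand. OASL went from 25.5, 22.8 and 27.1 CPM to 11, 9.66 and 10.04 CPM (-1.29 ± 0.12, adjusted p = 2.3e-08, edgeR) and HERC5, the ligase for ISG15, from 55.5, 55 and 59.2 CPM to 30.5, 22.2 and 23.8 CPM (-1.15 ± 0.09). IFIT3 (-1.05 ± 0.13), the RNA sensor gene RIGI (-0.79 ± 0.08), ISG15 (-0.56 ± 0.09), IFI44 (-0.52 ± 0.07) and IFIH1 (-0.18 ± 0.06) made up the rest of the 9 that fell, IFIH1 not without NT+noGV or NT+GV library 3 (adjusted p = 0.0521 and 0.0986, edgeR). Against these, 18 of the 32 tested rose, and the median was 0.28. The transcription factor IRF7 rose from 22.3, 21.4 and 23.1 CPM to 41.3, 39.7 and 33.8 CPM (0.77 ± 0.07) and the RNA-degrading pathway's OAS3 from 195, 184 and 206 CPM to 282, 282 and 266 CPM (0.51 ± 0.05). MX1 (0.63 ± 0.15), IFI6 (0.87 ± 0.13) and IRF9 (0.41 ± 0.07) were among the others. MX2 had the highest value (1.08 ± 0.38) but did not pass in 5 of the 6 fits that left out 1 library, the exception being NT+GV library 3 (adjusted p from 0.0598 to 0.133, edgeR). Nor did it pass with the replicate block or with no filter on low counts (adjusted p = 0.0564 and 0.0983, edgeR). The guanylate-binding protein GBP1, outside the list, rose from 4.1, 4.87 and 4.46 CPM to 12, 12.8 and 11.8 CPM (1.45 ± 0.10).

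Windows around matches to the core of the interferon-stimulated response element (GAAA, any 2 bases, then GAAA, on either strand) are shown for 3 genes that fell and 2 that rose, to set both sides of the split beside each other, with matched bases in capitals and the same source and build as above.
IFIT1, chr10:89392477-89392546, + strand: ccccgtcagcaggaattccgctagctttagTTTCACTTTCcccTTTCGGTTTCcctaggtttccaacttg
IFIT3, chr10:89327811-89327880, + strand: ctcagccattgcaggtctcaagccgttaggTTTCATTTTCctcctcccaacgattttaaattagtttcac
HERC5, chr4:88456964-88457039, + strand: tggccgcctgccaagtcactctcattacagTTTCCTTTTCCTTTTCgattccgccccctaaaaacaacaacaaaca
MX1, chr21:41431824-41431893, + strand: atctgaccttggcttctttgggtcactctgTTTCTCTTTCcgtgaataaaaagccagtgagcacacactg
IFI6, chr1:27672309-27672378, - strand: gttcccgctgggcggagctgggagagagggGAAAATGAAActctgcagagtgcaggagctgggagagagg
IFIT1, IFIT3 and HERC5 fell and MX1 and IFI6 rose, and the windows of both kinds held the element. It was found in 16 of 172 called raised genes (9.3%), 5 of 52 called lowered genes (9.62%) and 483 of 12225 tested genes (3.95%). No window was listed for IFIT2, OASL or IRF7, and that of RIGI held no match.

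**Figure D3:**
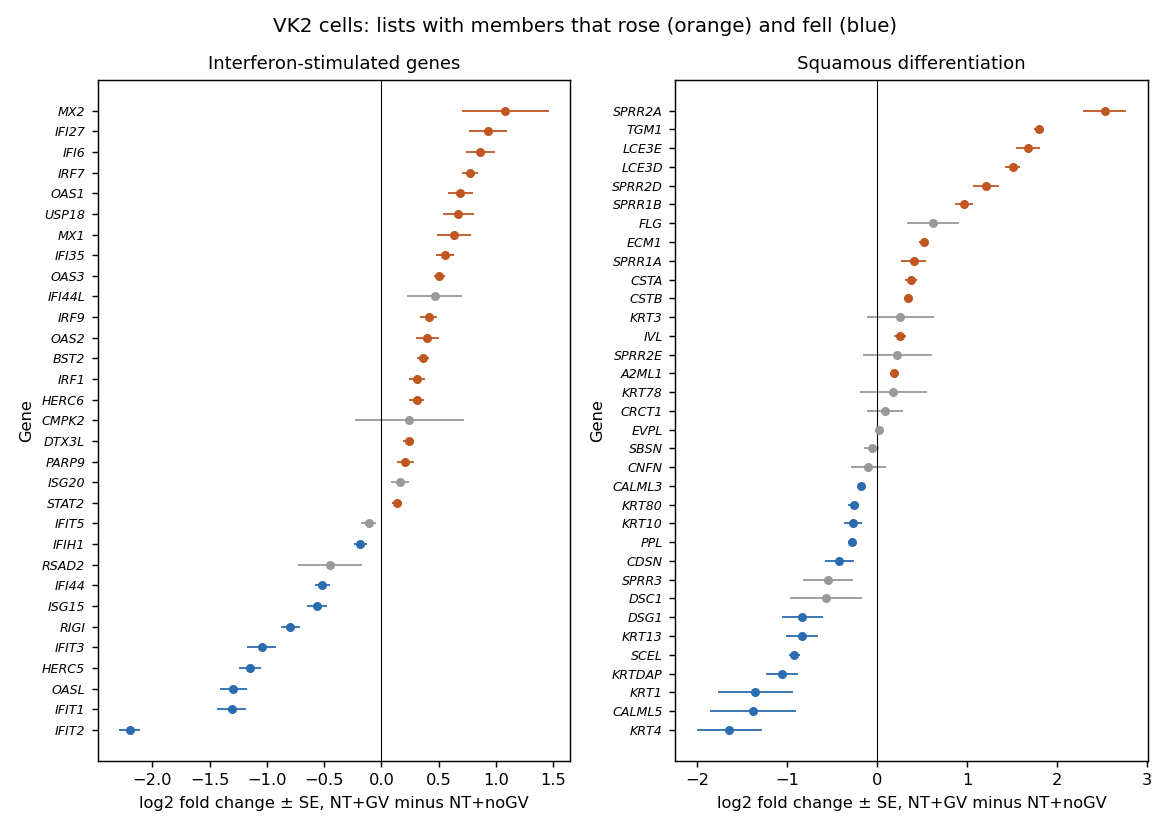
Log2 fold change (NT+GV minus NT+noGV, VK2 cells) with its standard error for 31 of the 32 tested interferon-stimulated genes (left) and 34 tested squamous differentiation genes (right), in orange where the gene rose, blue where it fell and grey where it did not pass. On the left 17 of those drawn rose and 9 fell, from MX2 at 1.08 to IFIT2 at -2.20, and on the right 12 rose and 12 fell, from SPRR2A at 2.53 to KRT4 at -1.64.

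Antigen presentation by MHC class I rose as a whole, in small steps. All 15 genes of the list rose, none was called, the median was 0.45 and in all of them the NT+GV libraries lay above the NT+noGV libraries. HLA-B was at 73, 71 and 76.7 CPM and 132, 128 and 123 CPM (0.79 ± 0.04, adjusted p = 1.1e-16, edgeR). The peptide transporter TAP1 rose by 0.71 ± 0.05 and the immunoproteasome subunit PSMB9 by 0.97 ± 0.12. The HLA genes are alike in sequence, so reads may be split among them with error. Of 17 inflammasome and cell death genes 8 rose and 0 fell (1 without NT+noGV library 1 or 2), with CASP1 (0.42 ± 0.07), CASP4 (0.28 ± 0.04), the pore-forming GSDMD (0.39 ± 0.06) and RIPK3 (0.72 ± 0.14) among those that rose.

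Squamous differentiation genes also split. TGM1, the transglutaminase that crosslinks the cornified envelope, was at 36.7, 36.2 and 37.9 CPM and 137, 133 and 115 CPM (1.79 ± 0.05, adjusted p = 2.08e-22, edgeR). Its late envelope partners LCE3E (1.67 ± 0.13), SPRR2A (2.53 ± 0.24), SPRR2D (1.21 ± 0.14) and SPRR1B (0.96 ± 0.10) rose with it. The SPRR2 and LCE3 genes are families of near copies that may share reads. KRT13, the keratin of the upper layers of non-cornified epithelium, was at 4.1, 4.54 and 5.22 CPM and 2.35, 2.24 and 3.06 CPM (-0.84 ± 0.18, adjusted p = 0.000757, edgeR), and its partner KRT4 (-1.64 ± 0.36) fell from under 1 CPM. KRTDAP (-1.06 ± 0.18) and SCEL (-0.92 ± 0.06), expressed as keratinocytes differentiate, fell as well. In all 12 of 34 tested members rose and 12 fell, with a median of 0.05, near that of all genes. Of the stress keratins KRT17 rose from 1719, 1716 and 1780 CPM to 3140, 3486 and 3019 CPM (0.89 ± 0.05) and KRT6B (0.47 ± 0.04) and KRT16 (0.41 ± 0.04) by less. The basal keratin KRT5 had a small negative value (-0.11 ± 0.03) and did not pass without NT+GV library 1 or 3 (adjusted p = 0.0789 and 0.0776, edgeR). KRT7, a keratin of simple epithelium, rose from 1.91, 2.04 and 1.63 CPM to 4.39, 4.62 and 4.72 CPM (1.30 ± 0.15). KRT86 overlaps KRT7 on the same strand (260 counts in the 6 libraries against 570), so the 2 may share reads.

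Surface and junction genes moved singly. MUC1, the membrane mucin, was at 3.07, 4 and 3.15 CPM and 9.46, 7.61 and 8.93 CPM (1.36 ± 0.13, adjusted p = 4.39e-10, edgeR), and MUC13 (3.12 ± 0.58) rose at under 1 CPM, while 9 of 13 mucins were too low to be tested. CLDN1, the main claudin of stratified epithelium, was at 11.8, 10.7 and 10.3 CPM and 38.8, 28.6 and 35.1 CPM (1.65 ± 0.15, adjusted p = 1.38e-07, edgeR). The scaffold TJP1 fell from 227, 232 and 225 CPM to 185, 180.5 and 184 CPM (-0.32 ± 0.04) and PARD3 fell as well (-0.30 ± 0.04). Of 17 tight junction genes 3 rose, 2 fell and the median was 0.06. Those counts lie near the shares over all genes tested, of which 13.9% rose and 12.5% fell. Among 20 adherens junction and desmosome genes 8 rose and 2 fell (1 without NT+GV library 2), with JUP (0.28 ± 0.04) up and E-cadherin, CDH1, not passing (0.04 ± 0.03). The kallikreins KLK5 (-0.37 ± 0.05), KLK6 (-0.65 ± 0.16) and KLK7 (-0.93 ± 0.23), which cut desmosomes, fell and KLK10 rose (0.53 ± 0.07). They were the only ones to pass of 13 kallikreins and inhibitors tested, where 9 did not and the median was 0.15.

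Genes of glycolysis and of the hypoxia response mostly rose. CA9, a carbonic anhydrase under hypoxia-inducible factor, was at 10.4, 9.78 and 10.5 CPM and 31, 30.6 and 28.7 CPM (1.56 ± 0.07, adjusted p = 2.8e-18, edgeR). LDHA, which makes lactate, was at 1316, 1323 and 1345 CPM and 1909, 1919 and 2021 CPM (0.55 ± 0.03, adjusted p = 9.01e-15, edgeR). NDRG1 went from 779, 708 and 727 CPM to 1386, 1274 and 1278 CPM (0.83 ± 0.04). The groups were far apart in these 3 genes, and CA12 (0.76 ± 0.04), ADM (1.22 ± 0.10) and PGK1 (0.56 ± 0.04) moved alike. Of 30 members 26 rose and 0 fell, 2 were called and the median was 0.35. VEGFA was among the members that did not pass (-0.10 ± 0.10). Of 14 glycogen metabolism genes 5 rose and 3 fell, with a median of 0.07. PYGB, the phosphorylase that breaks glycogen down, fell from 993, 1026 and 1025 CPM to 728, 744 and 677 CPM (-0.50 ± 0.04, adjusted p = 1.37e-11, edgeR), while the synthase GYS1 (0.24 ± 0.05), the phosphatase-targeting subunit PPP1R3B (0.70 ± 0.09) and the phosphoglucomutase PGM1 (0.27 ± 0.04) rose.

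Amino acid and unfolded protein stress genes moved the other way. Of 25 tested 14 fell and 2 rose, none was called, and the median was -0.22. PSAT1, an enzyme of serine synthesis, was at 202, 195 and 182 CPM and 140, 122 and 126 CPM (-0.58 ± 0.06, adjusted p = 9.45e-08, edgeR). The cystine carrier SLC7A11 went from 195, 177 and 180.5 CPM to 109, 97.4 and 121 CPM (-0.75 ± 0.10). ASNS (-0.56 ± 0.07), CHAC1 (-0.63 ± 0.11), TRIB3 (-0.57 ± 0.07), SESN2 (-0.39 ± 0.05) and DDIT3 (-0.43 ± 0.10), targets of the transcription factor ATF4, fell as well, while ATF4 itself did not pass (-0.05 ± 0.06). The chaperone gene HSP90B1 was 1 of the 2 that rose (0.19 ± 0.04), with PDIA4 (0.14 ± 0.04). ADM2, induced by the same stress, was at 18.9, 19 and 19.5 CPM and 10.9, 7.79 and 8.67 CPM (-1.06 ± 0.14), and it overlaps SBF1 on the opposite strand. Of 13 heat shock chaperones 8 rose (4 without NT+GV library 2), among them HSPA1A (0.79 ± 0.15) and HSPA8 (0.50 ± 0.09), and 2 fell (0 to 1 with any 1 library left out). HSPA1A and HSPA1B are near-identical and may share reads.

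Lipid genes moved by small amounts. Of 24 fatty acid genes 6 rose and 6 fell. SCD, the desaturase, was at 3551, 3907 and 3780 CPM and 2853, 2824 and 2809 CPM (-0.41 ± 0.05, adjusted p = 6.92e-07, edgeR), and FASN, fatty acid synthase, at 2000, 2208 and 2171 CPM and 1604, 1692 and 1540 CPM (-0.40 ± 0.05). Among 25 cholesterol synthesis and uptake genes 8 fell and 2 rose (1 without NT+noGV or NT+GV library 3), with MSMO1 (-0.23 ± 0.04) and LSS (-0.21 ± 0.04) falling and a median of -0.06. The lipid droplet coat gene PLIN2 rose (1.03 ± 0.07). Of 13 mitochondrially encoded genes 9 fell and 1 rose (ND1, 0.17 ± 0.04). COX1, a subunit of complex IV, was at 10520, 10960 and 11270 CPM and 8470, 8714 and 8500 CPM (-0.35 ± 0.03), and CYTB and COX3 fell alike (-0.36 ± 0.03 and -0.36 ± 0.03). These genes made up 4.79 to 5% of all counts without GV and 4.24 to 4.3% with it. Antioxidant genes moved mostly up, since of 27 listed under NRF2 14 rose and 1, SLC7A11, fell (2 without NT+noGV library 1). SOD2, the mitochondrial superoxide dismutase, was at 67.9, 61.3 and 60.6 CPM and 161, 149 and 167 CPM (1.33 ± 0.05), AKR1C1 at 38.8, 32.1 and 34.9 CPM and 96.2, 83.1 and 91.5 CPM (1.36 ± 0.07), the latter with near copies that may share reads. The metallothioneins MT1X (0.48 ± 0.05) and MT2A (0.41 ± 0.07) rose.

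Growth and survival genes moved without a common direction. PMAIP1, which encodes the proapoptotic protein NOXA, was at 113, 93 and 93.5 CPM and 50.7, 39.1 and 51.1 CPM (-1.08 ± 0.13, adjusted p = 6.85e-06, edgeR). BBC3 (-0.47 ± 0.11), also proapoptotic, and the antiapoptotic MCL1 (-0.32 ± 0.04) and BCL2L1 (-0.16 ± 0.03) fell too, so that 6 of 15 BCL2 family genes fell and 1 rose (0 without NT+noGV library 1 or 3 or NT+GV library 1 or 2). The EGFR ligand genes EREG (1.01 ± 0.09), TGFA (0.73 ± 0.03) and HBEGF (0.75 ± 0.08) rose, while EGFR itself fell (-0.34 ± 0.04). The ERK phosphatase DUSP6 went from 188, 193 and 202 CPM to 142, 142 and 142 CPM (-0.45 ± 0.04), while DUSP4, another, rose (0.66 ± 0.04), as did IER3 (0.78 ± 0.05). Of 19 EGFR ligand and ERK feedback genes 10 rose and 3 fell. EGR3, an immediate early gene, fell from 1.68, 1.96 and 2.36 CPM to 0.725, 0.84 and 0.658 CPM (-1.45 ± 0.21). Of 23 immediate early genes 7 rose, among them KLF10 (0.54 ± 0.06) and FOSL2 (0.35 ± 0.04), and 4 fell. Among all genes tested 13.9% rose and 12.5% fell. Of 29 cell cycle and DNA replication genes 5 rose (3 without NT+noGV library 1 or 3, 1 without NT+GV library 2), 3 fell and the median was -0.00489. These counts, too, lie near the shares over all genes tested. MKI67 did not pass (0.14 ± 0.08) and CCND1 fell (-0.29 ± 0.04). HEY1, a Notch target, fell from 9.9, 8.33 and 8.84 CPM to 5.11, 4.06 and 5.24 CPM (-0.90 ± 0.10). Of 15 Notch pathway genes 5 rose and 3 fell. NOTCH3 (0.35 ± 0.05) and, at low level, DLL4 (0.93 ± 0.21) were among those that rose, and NOTCH1 fell (-0.24 ± 0.05).

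Polyamine genes, the subject of the wider study, moved by small amounts under GV alone. SAT1, which acetylates spermidine and spermine for export, was at 224, 214 and 216 CPM and 319.7, 316 and 324 CPM (0.55 ± 0.04, adjusted p = 9.62e-12, edgeR). AMD1, which supplies decarboxylated S-adenosylmethionine for their synthesis, fell from 126, 124 and 120.1 CPM to 99.5, 97 and 112 CPM (-0.26 ± 0.05, adjusted p = 0.000311, edgeR). The NT+GV libraries lay above the NT+noGV libraries for SAT1 and below them for AMD1. PAOX, the polyamine oxidase, was under 1 CPM in all 6 libraries, its groups overlapped and it did not pass (0.51 ± 0.40). An unnamed protein-coding gene overlaps PAOX on the same strand (493 counts in the 6 libraries against 115). Reads may be split between the 2 with error, and the part of this in the low level was not tested. ODC1, the first enzyme of synthesis, did not pass either (0.06 ± 0.04). Of 21 polyamine genes tested 5 rose, 3 fell and none was called, where 13.9% of all genes tested rose and 12.5% fell. Without NT+noGV library 1 or NT+GV library 2, 3 rose, and with library totals in place of TMM factors 3 rose and 5 fell.

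Several of the largest changes belong to none of these lists. ZP4, a gene named for the egg coat, was at 0.427, 0.763 and 0.496 CPM and 6.53, 6.58 and 6.87 CPM (3.59 ± 0.22, adjusted p = 3.96e-14, edgeR). HEPHL1, a copper-dependent ferroxidase, was at 2.7, 3.16 and 2.86 CPM and 17.9, 17.4 and 19 CPM (2.65 ± 0.09), and IGFBP3, a binder of insulin-like growth factors, at 3.39, 3.75 and 3.82 CPM and 20.1, 23 and 20.4 CPM (2.53 ± 0.09). The groups were far apart in each. The cytochromes CYP1A1 (2.49 ± 0.18) and CYP1B1 (2.49 ± 0.13), which oxidize aromatic compounds and oestrogens, rose as well. On the other side SULT1E1, which sulfates oestrogens, went from 3.9, 3.42 and 3.24 CPM to 1.45, 1.12 and 1.26 CPM (-1.45 ± 0.19). KRCC1 was at 18.3, 17.6 and 16.9 CPM and 6.39, 6.53 and 7.98 CPM (-1.32 ± 0.10), and MERTK, a receptor kinase for the uptake of dying cells, at 8.62, 7.93 and 8.29 CPM and 4.21, 3.55 and 3.4 CPM (-1.16 ± 0.10). TENM4 (-1.09 ± 0.07) and SMIM11 (-1.09 ± 0.24) fell too, SMIM11 with the wider spread of 15.8, 12.2 and 13.9 CPM against 4.7, 7.14 and 7.9 CPM. FOXA2, a transcription factor counted among the columnar markers, fell from 22.3, 20.9 and 17.6 CPM to 11.3, 9.66 and 9.36 CPM (-1.01 ± 0.09).

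Among genes that do not code for protein, DIRC3 rose from 1.74, 1.6 and 1.25 CPM to 4.84, 4.43 and 4.72 CPM (1.61 ± 0.20), PAX8-AS1 from 3.93, 3.64 and 3.27 CPM to 8.95, 8.45 and 9.7 CPM (1.33 ± 0.12) and the pseudogene OXCT2P1 from 1.39, 1.53 and 1.58 CPM to 3.11, 4.06 and 3.58 CPM (1.25 ± 0.20). L3MBTL2-AS1 fell from 5.83, 5.34 and 5.84 CPM to 3.07, 2.24 and 2.63 CPM (-1.09 ± 0.15). PAX8-AS1 overlaps PAX8 on the opposite strand, and PAX8 rose as well (0.78 ± 0.12).

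The same exposure was then set beside that of the cervical lines. Fold changes come from a fit of each line's 24 libraries, and the difference between lines was tested as an interaction over all 72 libraries, with 21195 genes tested. The difference between VK2 and Ecto cells was called for 730 genes (3.44%), with the VK2 value above the Ecto value in 175 (0.826%) and below it in 555 (2.62%). Against Endo cells 760 genes (3.59%) were called, 214 above (1.01%) and 546 below (2.58%). All of these tests use the same 6 VK2 libraries as the response itself. By adjusted p alone the VK2 value was above the Ecto value for 15.6% of genes and below it for 11.9%, and above the Endo value for 14.4% and below it for 11.3%. Interferon-stimulated genes stood above that share: 21 of 32 had the higher VK2 value against Ecto and 14 of 32 against Endo, and 1 the lower value in each. In Ecto cells 2 of the list rose and 18 fell (21 and 23.7% of all genes in that line), and in Endo cells 12 rose and 14 fell (25.7 and 28.7%). IFIT2 fell in all 3 lines, by 2.20 ± 0.09 in VK2, 2.28 in Ecto and 2.35 in Endo cells on the log2 scale, while IFIT1 fell less in VK2 (difference 0.95 ± 0.16 against Ecto, adjusted p = 3.5e-06, and 1.23 ± 0.15 against Endo, adjusted p = 2.22e-09, edgeR).

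The remaining lists differed from Ecto and Endo cells in different ways. For glycolysis and hypoxia 22 of 30 genes had the higher VK2 value against Ecto, where 12 rose and 8 fell and in VK2 cells 26 rose, and 9 against Endo, where 21 rose. For MHC class I 9 of 15 had the higher VK2 value against Ecto and 10 of 15 the lower one against Endo. Of 25 cholesterol genes 21 fell in Ecto cells and 23 in Endo cells, and the VK2 value was the higher in 18 against each. Of amino acid stress genes the VK2 value differed from Endo in 18 of 25 upward and 1 downward, and from Ecto in 9 upward and 5 downward. Of the cytokines, the VK2 value stood against Endo cells with 14 of 27 below and 4 above, and against Ecto cells with 6 below and 4 above.

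Among genes called in VK2 cells with a mean of at least 1 log2 CPM, the largest differences from Ecto cells with the higher VK2 value were in IL32, 4.62 ± 0.17 in VK2 and 0.81 ± 0.06 in Ecto cells, DIRC3 (-1.54 ± 0.19 in Ecto cells), CFB (1.51 ± 0.11), MMP9 (1.62 ± 0.10) and GBP1 (-0.25 ± 0.07). The level of IL32 without bacteria was 86.6 ± 2.17 CPM in Ecto cells (SD, n = 3), 0.587 ± 0.13 CPM in Endo cells and 0.48 ± 0.096 CPM in VK2 cells. MMP9 without bacteria was highest in VK2, at 23.3 ± 0.399 CPM against 2.84 ± 0.469 CPM in Ecto and 1.02 ± 0.115 CPM in Endo cells. In Endo cells IL32 rose by 4.85 ± 0.12, and its VK2 minus Endo difference did not pass (-0.25 ± 0.32). MMP9 rose by 4.15 ± 0.13 in Endo cells, more than in VK2 cells (difference -0.64 ± 0.18, adjusted p = 0.00522, edgeR). CYP1A1 (4.66 ± 0.17), PLA2G4E (2.97 ± 0.34), HAS2 (2.83 ± 0.27), RRAD (2.59 ± 0.12) and SERPINB2 (3.55 ± 0.10) had larger fold changes in Ecto cells than the 2.49, 1.37, 1.26, 1.26 and 2.24 of VK2 cells. In Ecto cells PLA2G4E and HAS2 started near the floor, at means of 0.103 and 0.244 CPM without bacteria and 0.854 and 1.8 CPM with GV. Against Endo cells C3 (5.75 ± 0.11 in Endo cells), PLIN2 (4.18 ± 0.42), SERPINB3 (3.77 ± 0.11), IL24 (5.28 ± 0.19) and S100A9 (4.02 ± 0.10) had the lower VK2 value. The mean level of PLIN2 in Endo cells was 0.126 CPM without bacteria and 2.29 CPM with GV, against 27.1 and 55.2 CPM in VK2 cells. IL24 in Endo cells started at 0.232 CPM. C3 stood at 0.832 ± 0.213 CPM in Endo cells without bacteria and 45.2 ± 1.63 CPM with GV, against 7.16 ± 0.29 and 40.1 ± 1.68 CPM in VK2 cells. OLR1 and KRT7, raised in VK2 cells, fell in Endo cells (-0.76 ± 0.11 and -0.46 ± 0.04). DIRC3 was raised in VK2 cells and fell in both cervical lines (-1.54 ± 0.19 and -1.58 ± 0.33). CXCL8 differed from Endo (-1.65 ± 0.20, adjusted p = 5.85e-09, edgeR) and its difference from Ecto did not pass (-0.06 ± 0.19).

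**Figure D4:**
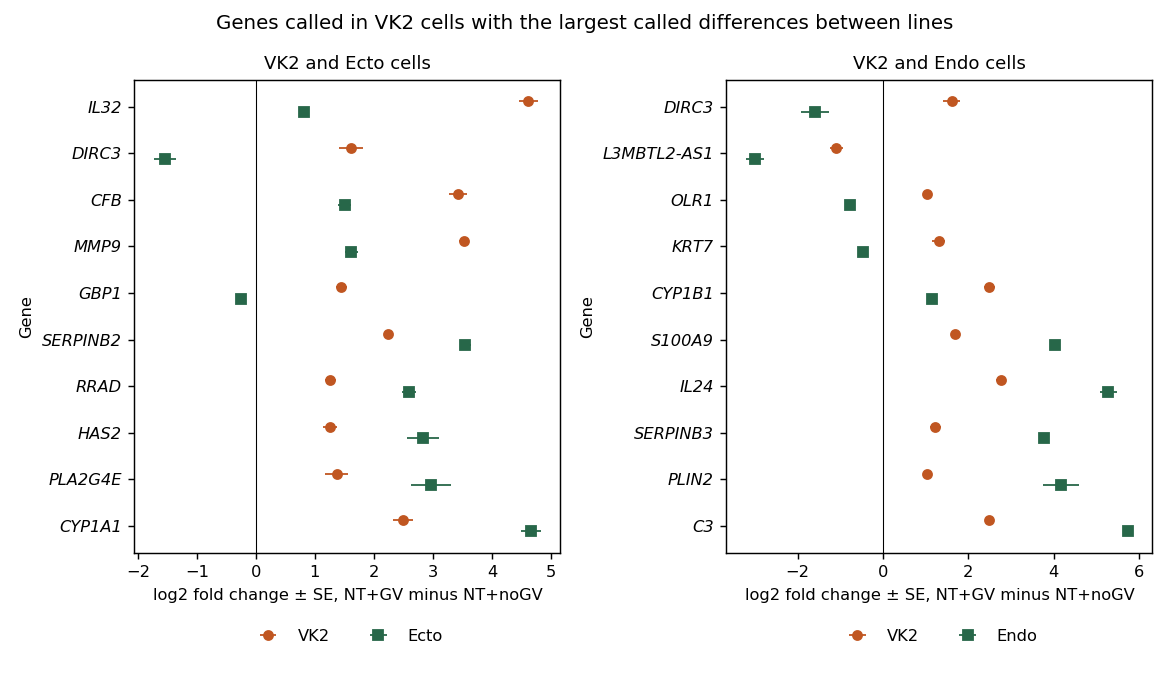
Log2 fold change (NT+GV minus NT+noGV) with its standard error in VK2 cells (circles) and in Ecto (left) or Endo cells (right, squares) for the 5 largest called differences in each direction among genes called in VK2 cells with a mean of at least 1 log2 CPM. IL32 stands at 4.62 in VK2 and 0.81 in Ecto cells at the top left, and C3 at 2.48 in VK2 and 5.75 in Endo cells at the bottom right.

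GV was also given to VK2 cells that had received 400 uM spermidine (SPD), in 6 libraries that share none with the comparison above, so each gene was measured a further time though not under the same condition. There 521 genes (2.82%) were called raised and 103 (0.558%) lowered, and 17.2% rose and 17.9% fell by adjusted p alone. Of the 413 genes called with GV alone 388 had the same sign after SPD, 284 passed in the same direction (68.8%) and 234 were called in the same direction, 56.7% of those called with GV alone and 37.5% of the 624 called after SPD. IL32 was at 3.89 ± 0.16 after SPD, CXCL8 at 2.69 ± 0.15, MMP9 at 3.07 ± 0.08 and IFIT2 at -2.32 ± 0.09. After SPD all 7 tested genes of the neutrophil chemokine list rose, and so did 20 of 27 cytokines, 20 of 22 NF-kB genes and 24 of 30 glycolysis and hypoxia genes. Of interferon-stimulated genes 13 rose and 11 fell, and of amino acid stress genes 19 fell and 3 rose. Of 33 replication-dependent histone genes tested 9 rose with GV alone (median 0.36) and 14 after SPD (median 0.62), and 1 fell in each. Of the 41 listed, 30 stayed under 1 CPM in all 6 NT libraries, so these medians rest mostly on few counts. AMD1 was at -0.26 with GV alone and 0.00 after SPD.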

How the data were processed

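Total RNA libraries (CORALL kit, ribosomal RNA depleted, stranded) were read as deposited. The authors estimated transcript counts with Salmon on release 44 (GRCh38.p13) and summed them to 62266 genes with tximeta, so the values are estimated counts per gene, whole numbers with no scaling, and whether molecular identifiers were collapsed is not given in the sources used here. These counts were tested with edgeR 4.0.16 (R 4.3.3) by a two-sided robust quasi-likelihood fit with Benjamini-Hochberg adjustment, after TMM scaling and filterByExpr, in all 24 VK2 libraries with 1 coefficient per group, and differences between lines in all 72. Replicate pairs differed by 2.53 to 6.35 chi-square units per degree of freedom, more than counting error. Alternatives were DESeq2 1.42.0, RLE factors, library totals, other count filters, other fold thresholds, the replicate block, fewer libraries and each library left out. The steps were tested on simulated counts. The comparison, defined by labels alone, and the 44 gene lists were chosen with earlier results of these data known. Genes named were the 12 largest changes in each direction at a mean of at least 1 log2 CPM, up to 4 per list by smallest adjusted p, genes the study names, the largest and opposite differences between lines, and the largest non-coding changes. Another 70 genes were named after their values were seen, including TNFAIP3, IL6, IL36G, IFIT3 and MX1. Promoter windows came from RefSeq (GRCh38.p14). Some items are not reported here.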

Additional observations from a re-analysis of the deposited data

Results flagged for a closer look

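The response to GV differed between VK2 and Ecto cells for 730 genes and between VK2 and Endo cells for 760 genes, each by edgeR's test of the difference itself, and the named genes below were picked out by that test. VK2 minus Ecto, the response was higher for IL32 (3.78, log2), DIRC3 (3.13), CFB (1.89), MMP9 (1.88) and GBP1 (1.68), and lower for CYP1A1 (-2.19), PLA2G4E (-1.62), HAS2 (-1.60), RRAD (-1.36) and SERPINB2 (-1.33). VK2 minus Endo, it was higher for DIRC3 (3.19), L3MBTL2-AS1 (1.90), OLR1 (1.79), KRT7 (1.75) and CYP1B1 (1.33), and lower for C3 (-3.28), PLIN2 (-3.18), SERPINB3 (-2.55), IL24 (-2.54) and S100A9 (-2.33). Without bacteria PLA2G4E and HAS2 were under 1 CPM in Ecto cells, and C3, PLIN2 and IL24 in Endo cells, so their fold changes there start from few counts.

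Genes that were called in opposite directions in VK2 and another line were also picked out. EGR3 was lowered in VK2 (-1.45 ± 0.21) and raised in Ecto cells (1.21 ± 0.25), a difference of -2.69. The pseudogenes IMPDH1P10 and RPS4XP16 and the unnamed gene ENSG00000278000 differed from Ecto by -3.12, -3.27 and -3.09, and IMPDH1P10 and TAMALIN differed from Endo by -2.72 and -3.15. IMPDH1P10, RPS4XP16, ENSG00000278000 and TAMALIN were under 1 CPM in all 6 VK2 libraries, and after SPD IMPDH1P10 went the other way (1.06 ± 0.35, adjusted p = 0.0168, edgeR), while RPS4XP16 (-0.30 ± 0.37), ENSG00000278000 (-0.25 ± 0.59) and TAMALIN (-0.45 ± 0.36) did not pass. The VK2 fall of these 4 genes did not pass with 1 library left out. The adjusted p of edgeR reached 0.0578 to 0.145 for IMPDH1P10 (without NT+noGV 1 or any NT+GV library), 0.0514 to 0.115 for RPS4XP16 (without NT+noGV 3 or NT+GV 1), 0.0686 to 0.18 for ENSG00000278000 (without NT+noGV 1 or 2 or NT+GV 1 or 2) and 0.106 to 0.115 for TAMALIN (without NT+noGV 1 or NT+GV 3).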

How the results depend on the processing

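Counts of called genes depended most on the thresholds and the filter. With a fold threshold of 2 on the log2 scale there were 86 raised and 7 lowered with GV alone, 219 differing from Ecto, 274 differing from Endo, and 120 raised and 9 lowered after SPD. With no fold threshold there were 2573 raised and 2309 lowered with GV alone, 5838 differing from Ecto, 5465 differing from Endo, and 3169 raised and 3301 lowered after SPD. With a mean count of at least 50, which leaves fewer genes to test, there were 113 raised and 18 lowered with GV alone, 399 differing from Ecto, 418 differing from Endo, and 117 raised and 35 lowered after SPD. DESeq2 called 49 genes lowered with GV alone against 91, and the cause was not tested. It called 215 raised. Leaving out 1 library gave 279 to 333 raised and 67 to 94 lowered with GV alone, 645 to 744 differing from Ecto, 672 to 774 differing from Endo, and 470 to 509 raised and 93 to 117 lowered after SPD, where the group left with 2 libraries shares the spread of the others. The remaining alternatives moved these counts by less than 1.5 times, and library totals shifted the median of all genes to -0.0215.

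The replicate numbers were shared between groups. Samples with the same number correlated at 0.0247 to 0.0454 in their deviations, and those with different numbers at -0.0376 to 0.00453. With 3 libraries per group such small values cannot decide whether the numbers pair the libraries. With the replicate block 321 genes were raised and 94 lowered with GV alone, 754 differed from Ecto and 778 from Endo, and 523 were raised and 107 lowered after SPD. Each library correlated best with its own number, which is a hint from the data and not from the design. Of 3299 values of named genes under an alternative, 3247 kept their direction and their side of an adjusted p of 0.05, whatever the fold change. In 48 the gene no longer passed, in 4, all of CD55, it came to pass, and no sign turned. A further 55 pairs of gene and alternative had no value. Depth limits the values of genes under 1 CPM, whose few counts make fold changes imprecise.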

Other observations

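Genes that the aryl hydrocarbon receptor is known to induce were looked up after CYP1A1 and CYP1B1 had been seen among the largest rises. CYP1A1 was at 1.48, 1.42 and 1.05 CPM without and 7.15, 7.61 and 7.44 CPM with GV, and CYP1B1 at 4.75, 3.6 and 3.91 CPM and 23.7, 20.5 and 24.9 CPM. The groups did not overlap for either. TIPARP, which encodes a repressor of the receptor, rose (0.39 ± 0.04, adjusted p = 6.7e-09, edgeR), as did ALDH1A3 (0.81 ± 0.04) and NQO1 (0.28 ± 0.04). AHRR, another repressor, passed with all libraries (0.71 ± 0.23, adjusted p = 0.0266, edgeR) but not without NT+noGV library 1 or 3 or NT+GV library 1 or 2 (adjusted p from 0.0832 to 0.11, edgeR). The receptor gene AHR (-0.11 ± 0.06) and its partner ARNT (0.10 ± 0.05) did not pass. CYP1A1 rose in Ecto (4.66 ± 0.17) and Endo cells (4.26 ± 0.20) too, and so did CYP1B1 (2.46 ± 0.19 and 1.15 ± 0.12).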
